A study of Mus musculus with 474 samples.

Results

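Ifi27-positive divisions are first divisions of haematopoietic stem cells (HSCs) after which both daughters held Ifi27 mRNA, set here against divisions after which neither daughter did. Ifi27 belongs to a small family of short hydrophobic proteins, first found as genes switched on by type I interferon, and the protein has been placed in mitochondria and at the nuclear envelope. Type I interferon binds a receptor pair, Ifnar1 and Ifnar2, whose kinases activate STAT proteins; with Irf9 these bind interferon-stimulated response elements before genes such as the Ifit, Oas and Mx families. Interferon is known to bring dormant HSCs into cycle, and HSCs keep some antiviral genes on without infection.

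Divisions were chosen by their Ifi27 values and by nothing else. Levels are in CPM, a gene's reads scaled to a common library total. Among divisions with 1 high and 1 low daughter, those with Ifi27 at 10 CPM or more in both sisters were called Ifi27-positive (71 in run 4 and 31 in run 5, 50.2% of all) and those under 1 CPM in both were called Ifi27-negative (49 in run 4 and 22 in run 5, 34.98%). The other 30 divisions (16 and 14 in those runs) met neither rule, and 68 further cells had no sequenced sister. HSCs came from bone marrow of male wild-type C57BL/6JRj mice aged 12 to 19 weeks, divided once under time-lapse imaging, and each daughter was picked with a micromanipulator for Smart-seq2, which reads full-length polyA RNA of single cells. A high daughter is the sister that received more lysosomes at the division and a low daughter the one that received fewer; no group was treated. Cultures were recorded as 9 experiments in sequencing runs 4 and 5, and each experiment held divisions of both Ifi27 groups. The Ifi27-negative group was small in some, with 1 division in experiment 72, 3 in experiment 68 and 4 in experiment 69. Means and SDs over experiments give each experiment the same weight. Whether the experiments used separate mice is not stated in the labels, so p-values measure the spread between experiments or between divisions.

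The median cell had 854272 counts on genes in Ifi27-positive divisions (76735 to 1860898), against 788106 in Ifi27-negative divisions (128072 to 2444858). Total count, detected genes, mitochondrially encoded share, counts per spike-in count and the share of the 50 highest genes differed between the groups by less than their spread over experiments (adjusted p = 0.918 for each, exact two-sided sign-flip permutation over 9 experiments). Detected genes averaged 9814 ± 697 in Ifi27-positive and 9623 ± 703 in Ifi27-negative divisions (SD over divisions). The HSC genes Mecom and Kit had counts in 100% and 99.5% of Ifi27-positive cells, against 100% and 100% of Ifi27-negative cells, while Hoxb5 was listed at 0 in every cell. The lymphoid genes Cd3e and Rag1, the myeloid genes Mpo and Ctsg and the macrophage gene C1qa were also listed at 0 throughout. Some other members of these marker lists had counts in many cells. The myeloid gene Prtn3 had counts in 69.1% of Ifi27-positive and 79.6% of Ifi27-negative cells. For Csf3r, also myeloid, these shares were 50.5% and 49.3%, and for the macrophage gene Cd68 they were 60.8% and 50.7%. Slamf1, an HSC gene, had counts in 25% of Ifi27-positive and 35.2% of Ifi27-negative cells.

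Ifi27 itself is described here without a test, since it set the groups. The gene (ENSMUSG00000064215) lies on chromosome 12 at 103434211 to 103440239 on the plus strand of GRCm38. In high daughters of Ifi27-positive divisions it ran from 10.04 to 325.8 CPM with a median of 76.6 CPM, and in their low daughters from 10.997 to 342.4 CPM with a median of 71.96 CPM. In Ifi27-negative divisions it had 0 reads in every cell. Few divisions lay between these levels. The lowest sister inside the upper threshold had 10.04 CPM and the next 12.1 CPM, and the nearest divisions just outside it had a lower sister at 9.81 and 9.41 CPM. Below the lower threshold no sister had any read, and the nearest division outside it had its higher sister at 1.08 CPM.

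Among the 30 divisions in neither group, 15 had 1 sister at 10 CPM or more and the other under 1 CPM. The sister with Ifi27 was the high daughter in 9 of these and the low daughter in 6. In a further 10 divisions the low daughter had 10 CPM or more and the high daughter 1 to 10 CPM, and 1 division had the reverse; in the remaining 4 the high daughter had 1 to 10 CPM and the low daughter under 1 CPM. Within Ifi27-positive divisions the sisters differed by a median of 1.62-fold, and 66 pairs were within 2-fold of each other while 36 were not. High minus low daughters, Ifi27 differed by -0.10 ± 0.37 on the log2(CPM + 1) scale (mean and SD over 9 experiments), and it was higher in high daughters in 3 of 9 experiments. The ranges of high and low daughters overlapped.

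**Figure D1:**
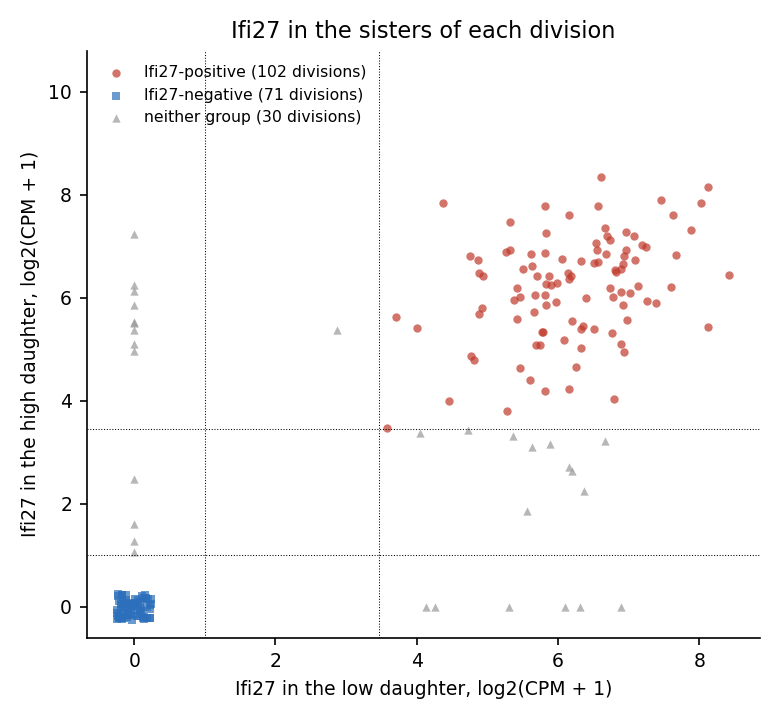
Ifi27 in the high daughter (vertical axis) and low daughter (horizontal axis) of each division, in log2(CPM + 1), with dotted lines at 1 and 10 CPM. The Ifi27-positive divisions fill the upper right, the 71 Ifi27-negative divisions sit at 0 (spread slightly so that points can be seen), and 30 divisions lie elsewhere.

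The 95% Wilson interval of the share of Ifi27-positive divisions was 43.4 to 57.1%. The share of Ifi27-positive divisions was lowest in experiment 60 at 30% (14.5 to 51.9%, 20 divisions) and highest in experiment 72 at 72.7% (43.4 to 90.3%, 11 divisions). The difference between these experiments was not tested. Run 4 had 52.2% (43.9 to 60.4%) and run 5 had 46.3% (34.9 to 58.1%). The median Ifi27 level of positive divisions, as the mean of the sisters, ran from 47.8 CPM in experiment 60 to 100.8 CPM in experiment 76. Of the 68 cells without a sequenced sister, 32 had Ifi27 at 10 CPM or more and 34 had under 1 CPM.

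**Figure D2:**
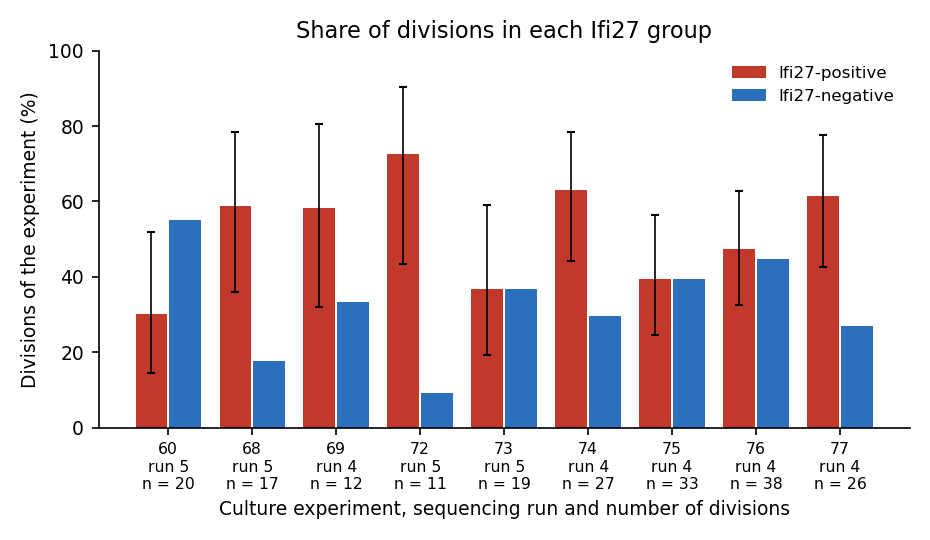
Percentage of divisions that were Ifi27-positive (red, with 95% Wilson interval) and Ifi27-negative (blue) in each of 9 experiments, with the sequencing run and number of divisions under each. The Ifi27-positive share runs from 30% in experiment 60 to 72.7% in experiment 72.

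Among genes detected in at least 20% of cells, edgeR over divisions called only Ifi27l2a (ENSMUSG00000079017), the neighbour of Ifi27 on the chromosome. Ifi27 itself was left out. Ifi27l2a passed that filter with 26.9% of the cells of both groups together, mainly through Ifi27-positive cells. Under the filterByExpr filter Ifi27l2a was not tested over divisions, and 0 genes were called. Ifi27l2a, a member of the same interferon-inducible family, lies on the minus strand at 103442167 to 103443680 of chromosome 12, 1928 bases past the end of Ifi27, so the genes run towards each other. It was detected in 83 Ifi27-positive cells (40.7%, 95% Wilson interval 34.2 to 47.5%), against 10 Ifi27-negative cells (7.04%, 3.87 to 12.5%). All intervals on shares of cells cover counting error only and take sisters as independent, so they are too narrow. Over experiments the share was 40.5 ± 15.3% in Ifi27-positive and 7.04 ± 9.67% in Ifi27-negative divisions (SD, n = 9). Per experiment, its summed level ran from 0.636 to 11.1 CPM with a median of 5.29 CPM in Ifi27-positive divisions, against 0 to 4.27 CPM with a median of 0 CPM in Ifi27-negative divisions. The ranges overlap: experiments 60 and 69 had more Ifi27l2a in Ifi27-negative divisions, the other 7 had more in Ifi27-positive ones, and in 5 experiments the Ifi27-negative divisions had no read of it.

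The mean level was 5.43 ± 3.38 CPM in Ifi27-positive and 0.773 ± 1.45 CPM in Ifi27-negative divisions (SD, n = 9 experiments), a 7.02-fold ratio of means. With each division as a unit, edgeR's quasi-likelihood test with experiment as block gave a log2 fold change of 4.19 ± 0.61 for Ifi27l2a (adjusted p = 1.15e-06, 95% interval 2.99 to 5.39). It was 1 of 11722 genes called (0.00853%). Where experiments were the replicates, edgeR did not call it: the log2 fold change was 4.68 ± 1.36 with an unadjusted p of 0.0044 and an adjusted p of 1. DESeq2 on the same sums did call it (log2 fold change 5.33 ± 0.99, adjusted p = 0.00089). Under other settings the log2 fold change ran from 1.13 (limma, log2(CPM + 1) scale) to 6.403 (low daughters alone) where experiments were the replicates. It ran from 3.06 to 4.53 in edgeR over divisions. In run 5 alone the log2 fold change over divisions was 3.43 and the call was lost (adjusted p = 0.9997).

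**Figure D3:**
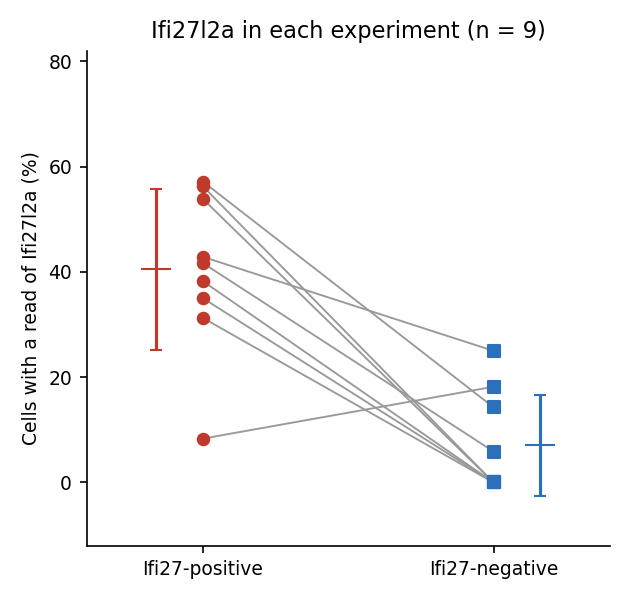
Percentage of cells with a read of Ifi27l2a in Ifi27-positive (left) and Ifi27-negative (right) divisions; each line joins the groups of 1 experiment, and bars beside the points give mean and SD over 9 experiments. The share is 40.5 ± 15.3% in Ifi27-positive and 7.04 ± 9.67% in Ifi27-negative divisions, and is higher in Ifi27-positive divisions in 8 of 9 experiments.

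Since the genes belong to 1 family, their transcripts were compared base by base. Over all annotated protein-coding transcripts (GENCODE M21), the longest run of identical bases that Ifi27 shares with Ifi27l2a is 11 bases. The coding sequence around that run is shown in each gene, 5′ to 3′, with the shared bases in capitals, at chr12:103439464-103439514 on the plus strand for Ifi27 and chr12:103442880-103442930 on the minus strand for Ifi27l2a (GRCm38).
Ifi27: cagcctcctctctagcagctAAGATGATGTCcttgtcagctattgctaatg
Ifi27l2a: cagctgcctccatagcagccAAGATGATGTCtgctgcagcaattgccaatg
Ifi27l2a shares a longer run, 51 bases of coding sequence, with Ifi27l2b, the next gene of the family on the minus strand (103450898 to 103457223). It is at chr12:103442872-103442922 in Ifi27l2a and chr12:103456398-103456448 in Ifi27l2b, and every base is identical.
Ifi27l2a and Ifi27l2b: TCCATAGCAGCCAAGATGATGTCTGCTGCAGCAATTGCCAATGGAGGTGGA
Ifi27l2b had a read in 0.980% of Ifi27-positive cells and in 0% of Ifi27-negative cells, and reads on the shared bases could be counted for either gene. RefSeq (GRCm38.p6) gives Ifi27l2a a longer span, 103433873 to 103443680, which covers Ifi27 on the other strand. The sources do not state whether counting used strand, and without strand the reads of genes that overlap cannot be told apart. Of all cells with Ifi27 at 10 CPM or more, 96 had a read of Ifi27l2a and the others, which were the majority, had none. A further 18 cells had Ifi27l2a with Ifi27 under 1 CPM.

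The share of cells with Ifi27l2a was much the same at low and high Ifi27. Among cells of Ifi27-positive divisions it was detected in 39.3% of those with Ifi27 at 10 to 50 CPM (56 cells), 39.2% of those at 50 to 100 CPM (74 cells) and 43.2% of those at 100 CPM or more (74 cells). The Spearman correlation between the genes' levels was 0.056 over these cells, which come in pairs of sisters. By division, 27 Ifi27-positive divisions had it in both sisters, 29 in 1 sister and 46 in neither, against 1, 8 and 62 Ifi27-negative divisions. Sisters of Ifi27-positive divisions had a Spearman correlation of 0.52 for Ifi27l2a, with those 46 divisions at 0 in both.

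In the 15 divisions where only 1 sister had Ifi27 at 10 CPM or more, Ifi27l2a was detected in 3 of 15 sisters with Ifi27 (20%, 7.05 to 45.2%) and in 4 of 15 sisters without it (26.7%, 10.9 to 51.95%). The difference between those sisters was not tested. Cells without a sequenced sister, which no grouping used, had Ifi27l2a in 7 of 32 cells with Ifi27 at 10 CPM or more (21.9%, 11.02 to 38.8%) and in 3 of 34 cells under 1 CPM (8.82%, 3.05 to 22.96%). This difference was not tested.

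Of 36 annotated genes within 500 kb of Ifi27, 21 had no read in any division and 5 were tested. Ddx24, an RNA helicase gene 8381 bases away that nearly all cells express, averaged 138.5 ± 24.3 CPM in Ifi27-positive and 131.2 ± 18.7 CPM in Ifi27-negative divisions (SD, n = 9), a log2 difference of 0.06 ± 0.13 with a 95% interval of -0.22 to 0.33. Otub2, a deubiquitinase gene, had 8.63 CPM in Ifi27-positive and 8.57 CPM in Ifi27-negative divisions and a log2 difference of 0.28 ± 0.41. Unc79 and Ppp4r4, which were low, had log2 differences of opposite sign. Unc79 averaged 1.42 CPM in Ifi27-positive and 0.435 CPM in Ifi27-negative divisions (2.08 ± 1.162, unadjusted p = 0.097), and Ppp4r4 averaged 1.34 CPM in Ifi27-positive and 4.197 CPM in Ifi27-negative divisions (-1.22 ± 1.35). Ubr7, an E3 ligase gene farther along the chromosome, had 91.02 ± 19.7 CPM in Ifi27-positive and 69.9 ± 20.9 CPM in Ifi27-negative divisions, with an unadjusted p of 0.031 in the edgeR fit over experiments.

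Across the transcriptome, the edgeR fit over experiments called 0 of 12495 genes (0.0%). At an unadjusted p under 0.05, 2.35% of these genes were higher in Ifi27-positive divisions and 1.24% were lower. In the fit over divisions 1.81% were higher and 1.66% lower at that level. DESeq2 on the sums called 7 genes (0.056%): besides Ifi27l2a these were Cfp, 2610307P16Rik, Arhgap24, Hpn and Susd2, which were higher in Ifi27-positive divisions, and Camk4, which was lower. Arhgap24, Hpn and Susd2 are named after their values were seen. The median log2 fold change of all genes was 0.03, and for 8639 genes (69.1%) the 95% interval lay within 2-fold in either direction.

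**Figure D4:**
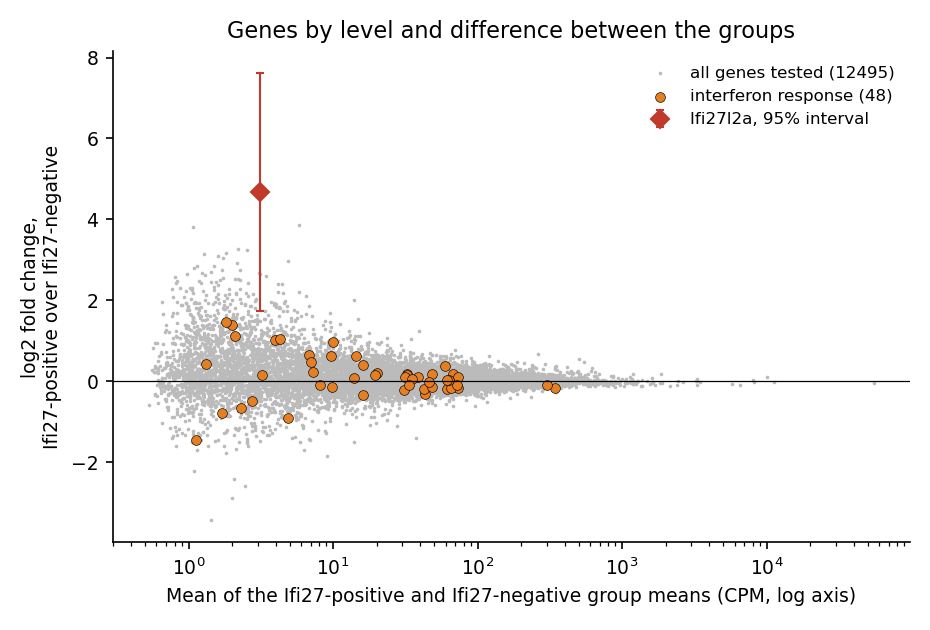
Log2 fold change of Ifi27-positive over Ifi27-negative divisions (vertical) against mean level in CPM on a log axis (horizontal) for 12495 genes in the edgeR fit over 9 experiments; interferon response genes are orange and Ifi27l2a is the red diamond with its 95% interval. Ifi27l2a stands at 4.68, and the 48 interferon response genes have a median of 0.08.

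The interferon response list, 59 genes of the type I programme, had a median close to that of all genes. Of 48 genes tested, 28 had a positive and 20 a negative log2 fold change (58.3% positive, against 55.6% of all genes). None passed the adjusted threshold, and their median was 0.08 beside 0.03 for all genes. At an unadjusted p under 0.05, 3 were higher in Ifi27-positive divisions (against 2.35% of all genes) and 1 was lower (against 1.24%). In the fit over divisions the median of 39 tested members was 0.0011 beside 0.0053 for all genes, with none at that level in either direction. The median of the list differed with the sister read. It was -0.0029 in high daughters alone (0.04 for all genes) and 0.21 in low daughters alone (0.05 for all genes).

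Isg20, an RNA exonuclease gene, ran from 11.4 to 21.03 CPM with a median of 18.6 CPM in Ifi27-positive divisions, against 5.94 to 16.9 CPM with a median of 11.3 CPM in Ifi27-negative divisions. Its log2 fold change was 0.63 ± 0.24 (unadjusted p = 0.021, edgeR), and it was higher in 8 of 9 experiments although the ranges overlap. Sp100, a component of PML nuclear bodies, averaged 66.8 ± 8.45 CPM in Ifi27-positive and 51.99 ± 13 CPM in Ifi27-negative divisions. Oas3, which makes the oligoadenylates that activate RNase L, averaged 12.6 ± 5.36 CPM in Ifi27-positive and 7.28 ± 4.91 CPM in Ifi27-negative divisions. Slfn5, a Schlafen family gene, was at 0.596 ± 0.357 CPM in Ifi27-positive and 1.67 ± 1.54 CPM in Ifi27-negative divisions. None of these 4 passed the adjusted threshold.

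No transducer of the pathway passed the adjusted threshold over experiments, and neither did any other of the 12495 genes tested. Irf9, the DNA-binding partner, had 30.95 ± 6.09 CPM in Ifi27-positive and 35.7 ± 18.8 CPM in Ifi27-negative divisions. Irf7, the interferon regulatory factor that amplifies the response, had 7.65 ± 3.86 CPM in Ifi27-positive and 6.05 ± 4.82 CPM in Ifi27-negative divisions, with a wide 95% interval of -0.69 to 1.96 for the log2 difference. Over the list of receptors and signalling genes, 23 were tested, none was at an unadjusted p under 0.05 in either direction, and the median log2 difference was 0.06. The interferon-gamma-type GTPases and chemokines had 11 tested, none at that level, and a median of 0.12. Of all genes 2.35% were higher and 1.24% lower at that level, so lists this short can hold 0.

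Other interferon-inducible genes that these cells express strongly differed by less than 2-fold within their intervals. Ifitm3, which blocks virus entry from endosomes, averaged 326.4 ± 79.8 CPM in Ifi27-positive and 326.2 ± 81.01 CPM in Ifi27-negative divisions, and the 95% interval of its log2 difference was -0.25 to 0.22. For Ifitm1 that interval was -0.46 to 0.22, for Ly6e -0.25 to 0.17 and for Ly6a, which encodes the HSC antigen Sca-1, -0.35 to 0.51. Of 18 class I antigen presentation genes tested, 18 had an interval within 2-fold and their median was 0.0049; B2m was listed at 0 in every cell. H2-D1, a class I heavy chain gene whose reads may mix with those of near-identical family members, averaged 1307 ± 230.8 CPM in Ifi27-positive and 1410 ± 296.99 CPM in Ifi27-negative divisions.

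Class II antigen presentation genes all lay on 1 side without passing the test. Of 7 tested, 7 had positive log2 fold changes, with a median of 0.39. None had an unadjusted p under 0.05, where 2.35% of all genes were higher and 1.24% lower. In run 5 alone 4 of 6 were positive, with a median of 0.15. H2-Aa, a class II alpha chain, ran from 0 to 12.3 CPM with a median of 5.36 CPM in Ifi27-positive divisions, against 0 to 6.99 CPM with a median of 1.66 CPM in Ifi27-negative divisions. Cd74, the invariant chain, had 26.5 ± 18.4 CPM in Ifi27-positive and 24.2 ± 23.3 CPM in Ifi27-negative divisions. The summed level of macrophage and dendritic cell markers had a median of 22.6 CPM over experiments (0.606 to 65.7 CPM) in Ifi27-positive and 22.4 CPM (0 to 159.1 CPM) in Ifi27-negative divisions.

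Promoters were searched for GAAA, then any 2 bases, then GAAA, the core of the interferon-stimulated response element, on either strand in RefSeq's windows from 250 bases before to 50 after each start (GRCm38.p6). The letters were in 23 of 46 interferon response genes that have a promoter there (50%), beside 3.99% of 27025 genes in all. The 17 of these 23 genes that were tested had a median log2 difference of -0.10 between Ifi27-positive and Ifi27-negative divisions. Over all tested genes with the letters (3.73% of those tested that have a promoter there) the median was 0.02, and it was 0.02 over all 9416 tested genes with a promoter. The gamma-activated letters TTCNNNGAA, which can overlap the first motif, were in 15.2% of interferon response promoters and 9.55% of all promoters; the 776 tested genes with them had a median of 0.03. Ifi27 and Ifi27l2a were not among the promoters used here.

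The 4 interferon response genes with the highest CPM in Ifi27-positive divisions among those with the letters before the start are shown, so that element and level can be read together, 5′ to 3′ on the gene's strand, with the matching letters in capitals.
Trim30a, chr7:104465210-104465239, minus strand: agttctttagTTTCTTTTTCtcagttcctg
Bst2, chr8:71537583-71537612, minus strand: ggcattccagGAAAATGAAActgaaaggct
Oas1a, chr5:120907526-120907555, minus strand: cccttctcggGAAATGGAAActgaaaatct
Stat2, chr10:128270266-128270295, plus strand: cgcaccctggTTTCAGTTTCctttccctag
Trim30a averaged 74.8 CPM in Ifi27-positive and 70.6 CPM in Ifi27-negative divisions, while Bst2 averaged 69.3 CPM in Ifi27-positive and 74.1 CPM in Ifi27-negative divisions. Oas1a averaged 44.8 CPM in Ifi27-positive and 47.02 CPM in Ifi27-negative divisions, and Stat2 averaged 37.1 CPM in Ifi27-positive and 49.01 CPM in Ifi27-negative divisions. Their log2 differences of 0.10 ± 0.13, -0.10 ± 0.16, -0.02 ± 0.19 and -0.31 ± 0.16 did not pass the adjusted threshold. Each of these genes thus had reads in divisions with no read of Ifi27.

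HSC identity genes had a median log2 difference of -0.03 over 40 tested, of which 17 were positive (42.5%, against 55.6% of all genes). At an unadjusted p under 0.05, 1 of them was higher in Ifi27-positive divisions (against 2.35% of all genes) and 2 were lower (against 1.24%), Hoxa9 and Vwf. In the fit over divisions 0 of 40 were at that level in either direction, 13 were positive, and the median was -0.09. Vwf, the clotting factor that marks platelet-biased HSCs, ran from 26.6 to 149.95 CPM with a median of 55.3 CPM in Ifi27-positive divisions, against 38.005 to 215.6 CPM with a median of 109.5 CPM in Ifi27-negative divisions. Its log2 difference was -0.62 ± 0.27 (unadjusted p = 0.042, adjusted p = 1, edgeR), it was higher in Ifi27-positive divisions in 3 of 9 experiments, and the ranges overlap. Procr, the endothelial protein C receptor used to sort HSCs, had 70.7 ± 34.3 CPM in Ifi27-positive and 96.4 ± 65.8 CPM in Ifi27-negative divisions with an interval of -1.56 to 0.60. Cd34, a stem and progenitor surface gene, had 160.7 ± 30.7 CPM in Ifi27-positive and 159.03 ± 35.7 CPM in Ifi27-negative divisions, with an interval of -0.21 to 0.24.

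Of 17 megakaryocyte and platelet genes tested, 13 had negative log2 differences, where 55.6% of all genes had positive ones. The median of the 17 was -0.06, and only Vwf was at an unadjusted p under 0.05 (against 1.24% of all genes lower). In the fit over divisions 0 of 15 were at that level. Over 16 activation and progenitor genes the median was 0.0052. Among these Plac8, a gene of myeloid and lymphoid progenitors, was at 10.6 ± 18.7 CPM in Ifi27-positive and 1.10 ± 1.83 CPM in Ifi27-negative divisions, and was detected in 15.2% of Ifi27-positive and 7.04% of Ifi27-negative cells (unadjusted p = 0.042). Medians of the erythroid, myeloid and lymphoid lists were 0.04 over 7, 0.08 over 9 and 0.25 over 4 genes tested. No member of those 3 lists was at an unadjusted p under 0.05, where 2.35% of all genes were higher and 1.24% lower. The macrophage and dendritic cell list had 6 tested and a median of 0.05, and the mast cell and basophil list had 3 tested and a median of -0.24. Emcn, a sialomucin of endothelium that HSCs also express, was at 16.5 ± 7.41 CPM in Ifi27-positive and 31.04 ± 11.9 CPM in Ifi27-negative divisions (log2 difference -0.96 ± 0.32, unadjusted p = 0.010). Bgn, which encodes the matrix proteoglycan biglycan, was at 4.43 ± 3.39 CPM in Ifi27-positive and 1.44 ± 1.65 CPM in Ifi27-negative divisions (log2 difference 2.02 ± 0.85, unadjusted p = 0.033). It had a count in only 16.7% of Ifi27-positive and 13.4% of Ifi27-negative cells, too few for the fit over divisions. Emcn and Bgn belong to a stroma and endothelium list with 6 tested, 4 of them positive, and a median of 0.45. In the fit over divisions 3 of the list were tested, 0 were positive, and the median was -0.20.

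Genes of DNA replication had higher mean levels in Ifi27-positive divisions, none of them past the adjusted threshold. Of 43 G1/S genes tested, 43 had positive log2 differences, from 0.06 to 0.68 with a median of 0.25, where 55.6% of all genes were positive. At an unadjusted p under 0.05 10 of them were higher (against 2.35% of all genes) and 0 were lower. Mcm4, a subunit of the replicative helicase, ran from 210.3 to 366.6 CPM with a median of 275.5 CPM in Ifi27-positive divisions, against 128.4 to 327.3 CPM with a median of 199.95 CPM in Ifi27-negative divisions. Its log2 difference was 0.33 ± 0.09 (unadjusted p = 0.0038, adjusted p = 1, edgeR), and it was higher in 8 of 9 experiments although the ranges overlap. Mcm3, another helicase subunit, and Lig1, which joins Okazaki fragments, had log2 differences of 0.26 ± 0.08 and 0.45 ± 0.13.

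These genes are transcribed together as a cell enters S phase, so their number is not a number of independent observations. The G1/S score, the mean of log2(CPM + 1) over the list, was 5.85 ± 1.30 in Ifi27-positive and 5.52 ± 1.51 in Ifi27-negative divisions (SD over divisions). Within experiments it was 0.51 ± 0.75 higher in Ifi27-positive divisions (mean and SD over experiments), and higher in 7 of 9 of them. Without 1 experiment this difference ran from 0.35 (experiment 68 left out) to 0.65 (experiment 72 left out). Within run 4 the median log2 difference of the list was 0.14, with 37 of 43 genes positive, and within run 5 it was 0.44, with 43 of 43. In the fit over divisions 42 of 43 were positive and 4 were at an unadjusted p under 0.05 (against 1.81%). G2/M genes had a median of 0.17 with 44 of 50 positive and 0 at that level. That median was -0.12, with 9 of 50 positive, without experiment 68. Ifi27l2a was called in the fit over divisions also with both cell cycle scores as covariates (log2 fold change 4.17, adjusted p = 1.83e-07, edgeR).

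**Figure D5:**
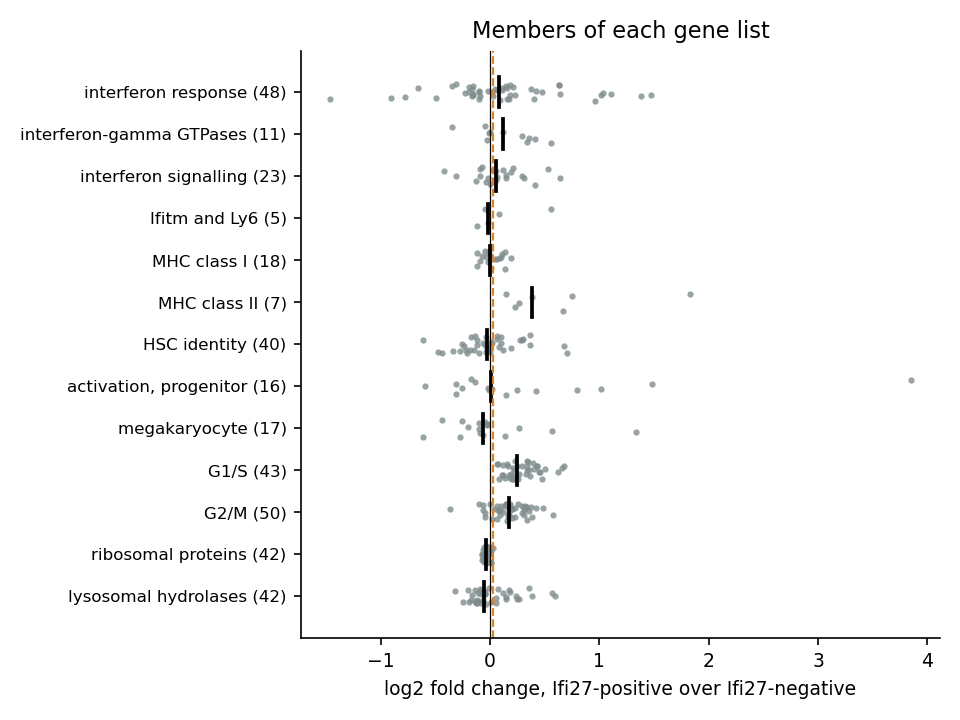
Log2 fold change of Ifi27-positive over Ifi27-negative divisions for each tested member of 13 gene lists in the edgeR fit over 9 experiments; black bars mark the list's median, the dashed orange line the median of all genes (0.03), and numbers in brackets the genes tested. All 43 G1/S genes lie to the right of 0, while medians of interferon response and class I genes lie at 0.08 and 0.0049.

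Housekeeping, lysosome, quiescence, immediate early, innate sensing and BCL2 lists had medians from -0.10 to 0.10, beside 0.03 for all genes. Cytosolic ribosomal proteins had a median of -0.04 over 42 tested, with an interval within 2-fold for each of 42. Ribosome biogenesis genes had a median of -0.0077 over 32, oxidative phosphorylation -0.01 over 30, glycolysis -0.03 over 19 and mitochondrially encoded genes -0.08 over 10. Lysosomal hydrolases had a median of -0.05 over 42, and lysosome membrane and vacuolar ATPase genes -0.05 over 34. Some of these lists leaned to 1 side, where 55.6% of all genes were positive. Positive were 0 of 10 mitochondrially encoded genes, 6 of 42 ribosomal protein genes and 9 of 34 lysosome membrane and vacuolar ATPase genes. In the fit over divisions these were 3 of 10, 20 of 42 and 12 of 34. Innate sensing genes leaned the other way over experiments, with 11 of 15 positive. Quiescence genes had -0.01 over 21, immediate early genes -0.10 over 15, inflammasome and innate sensing genes 0.10 over 15, and the BCL2 family 0.07 over 10. Of the innate sensing genes, Nfkbia, the inhibitor that NF-kappaB induces against itself, had the smallest p: it averaged 85.8 ± 30.8 CPM in Ifi27-positive and 68.8 ± 34.6 CPM in Ifi27-negative divisions (unadjusted p = 0.029).

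The genes with the smallest p over experiments belonged to none of the interferon lists. Cfp, which encodes properdin of the alternative complement pathway, ran from 18.9 to 112.8 CPM with a median of 83.9 CPM in Ifi27-positive divisions, against 14.6 to 79.2 CPM with a median of 55.2 CPM in Ifi27-negative divisions. Its log2 difference was 0.58 ± 0.12 (unadjusted p = 0.00028, adjusted p = 1, edgeR). Cfp was higher in 9 of 9 experiments, while the ranges of the groups overlap. Akr1c13, an aldo-keto reductase, and Fam167a were likewise higher in 9 of 9 experiments, with log2 differences of 0.63 ± 0.16 and 1.34 ± 0.34. 2610307P16Rik and Wwox, an oxidoreductase gene at a fragile site, had 0.66 ± 0.16 and 0.47 ± 0.12.

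On the lower side, Fmnl3, a formin that builds actin filaments, ran from 113.1 to 220.2 CPM with a median of 142.6 CPM in Ifi27-positive divisions, against 141.3 to 275.1 CPM with a median of 190.8 CPM in Ifi27-negative divisions. Its log2 difference was -0.41 ± 0.09 (unadjusted p = 0.00082, adjusted p = 1, edgeR). Camk4, a calcium and calmodulin dependent kinase, averaged 2.52 ± 1.81 CPM in Ifi27-positive and 7.80 ± 8.82 CPM in Ifi27-negative divisions, and was lower in 9 of 9 experiments. Arhgap29, a GTPase-activating protein gene, and C230088H06Rik were also lower in 9 of 9, with log2 differences of -0.65 ± 0.16 and -0.79 ± 0.19. Utp6, a factor of small ribosomal subunit assembly, had -0.38 ± 0.11.

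Likeness to Ifi27 was measured by the Spearman correlation over all divisions of the 3 classes, on the mean log2(CPM + 1) of the sisters after centring on experiment, as a description, since Ifi27 chose the groups. Ifi27l2a had the highest value, 0.42, of 11698 genes. Next came Ankrd44, a regulatory subunit gene of protein phosphatase 6, at 0.28 and Gstk1, a glutathione transferase of mitochondria and peroxisomes, at 0.25. Dtx2, Mtmr10, Pskh1, Tpgs1, Fgd2, Glipr1 and Wdr60 followed, from 0.24 down to 0.22. The lowest were Zdhhc5, a palmitoyltransferase gene, at -0.28 and Neu3, a membrane sialidase gene, at -0.27, followed by Boll and Myo15, and Ccnd1, a D-type cyclin, was at -0.23. The central 95% of genes lay between -0.13 and 0.14. Gstk1 averaged 16.7 ± 6.48 CPM in Ifi27-positive and 8.98 ± 5.61 CPM in Ifi27-negative divisions and was higher in 9 of 9 experiments, with an adjusted p of 1 by edgeR over experiments.

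Within Ifi27-positive divisions, high daughters were set against low daughters to see whether the lysosome label carried expression differences where Ifi27 was present. The edgeR fit over experiments called 0 of 11827 genes (0.0%), with 2.26% higher in high daughters and 2.27% lower at an unadjusted p under 0.05. DESeq2 called 3 genes, Pip5k1b, Gm15489 and Phex. Pip5k1b, a phosphatidylinositol phosphate kinase gene, averaged 51.8 ± 12.9 CPM in the high sister and 89.4 ± 25.3 CPM in the low sister (SD, n = 9), a log2 difference of -0.78 ± 0.15, and was lower in high daughters in 9 of 9 experiments. Its adjusted p was 0.995 by edgeR and 0.013 by DESeq2. Nbeal2, which platelet granules need, averaged 130.6 ± 16.01 CPM in the high sister and 100.3 ± 23.6 CPM in the low sister and was higher in 9 of 9. Neurl3, Syt3 and Zfp407 completed the 5 smallest p values, with log2 differences of -0.29 ± 0.07, -2.28 ± 0.53 and -0.41 ± 0.10.

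Ifi27l2a was detected in 40.2% of high and 41.2% of low daughters of Ifi27-positive divisions, with a log2 difference of 0.35 ± 0.50. Interferon response genes had a median of 0.08 over 44 tested, with 0 higher and 1 lower in high daughters at an unadjusted p under 0.05. Lysosomal hydrolases had a median of 0.0041 over 42. G2/M genes had 5 of 50 higher at that level and ribosome biogenesis genes 4 of 32, beside 2.26% of all genes. Whether the high against low difference changed with Ifi27 was tested as an interaction, which edgeR called for 0 of 12455 genes (0.0%; 3.58% at an unadjusted p under 0.05), as did limma on differences of each division (0 called, 581 at that level). Utrn, the gene of the cytoskeletal linker utrophin, had an interaction of -0.54 ± 0.13 on the log2 scale and Csnk1g1, a casein kinase gene, -0.74 ± 0.19. Ivl, Col20a1 and Ndrg4, the other genes with the smallest p, averaged under 5 CPM in high and low daughters of Ifi27-positive divisions.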

How the data were processed

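The deposited files hold raw counts per gene for single cells and tables of labels; per the labels, reads of Smart-seq2 libraries were processed with SAMtools and counted with featureCounts (Subread 1.5.0), per the submitters' processing notes. No source used here gives the genome build or strand setting. Count columns of 171 cells with no listed sample were not used. Gene names and coordinates come from GENCODE M21 (GRCm38), promoters from RefSeq.

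CPM were computed on 55450 genes without the 92 spike-ins. Sisters share movie, experiment, position and colony. The members, gene lists and tests were chosen with earlier results of these data known. Genes were tested with edgeR 4.0.16 (quasi-likelihood, TMM) on counts summed per experiment and group with experiment as block (filterByExpr), and on counts of each division for genes detected in at least 20% of cells; alternatives used DESeq2 1.42.0 and limma 3.58.1 in R 4.3.3, the last on log2(CPM + 1). A call needs a Benjamini-Hochberg adjusted p under 0.05. Intervals are 95%. Named were up to 5 genes per direction by smallest p over experiments, among genes with a count in at least 20% of cells. Also named were up to 4 per list, the genes most like Ifi27 and a set of interferon and HSC genes. No 2 libraries held identical counts. Some named genes are not reported here.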

Additional observations from a re-analysis of the deposited data

Results flagged for a closer look

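Within groups of 9 experiments, 5 values stood farther from the others than a Dixon test at 95% allows; chance flags about 1 group in 20, and 31 were examined. Ifi27l2a was at 4.27 CPM in Ifi27-negative divisions of experiment 69, which held 2 cells with a read among 8. Camk4 was highest in experiment 72 in both groups, at 7.07 CPM in Ifi27-positive and 30.6 CPM in Ifi27-negative divisions, where the Ifi27-negative group is 1 division. Akr1c13 was at 110.5 CPM in Ifi27-negative divisions of experiment 73, and Fmnl3 at 220.2 CPM in Ifi27-positive divisions of experiment 60. Cells without a sequenced sister lay outside the comparisons: 21.9% of those with Ifi27 at 10 CPM or more had a read of Ifi27l2a, against 8.82% of those under 1 CPM, and the difference was not tested.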

How the results depend on the processing

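The count of genes called over experiments, 0 by edgeR, was 7 by DESeq2 and 1 with each division as a unit, and stayed at 0 under the other alternatives (library size alone, no filter, no replicate block, each run, each daughter, a group set by 1 sister and read in the other, a threshold of 50 CPM, limma). Over divisions the count of 1 became 0 under the filterByExpr filter, which did not test Ifi27l2a, and 0 in run 5 alone, where the log2 fold change of Ifi27l2a was 3.43; without 1 experiment it was 1 to 2. The second gene was Tmem132d without experiment 72 and Atp9a without experiment 77. Set against 4.68 on sums, the log2 fold change of Ifi27l2a ran from 1.13 (limma) to 6.403 (low daughters alone), with 2.82 without the replicate block. That limma fit used the mean log2(CPM + 1) of divisions in each experiment and group. Over divisions, leave-one-out aside, it ran from 3.06 (no replicate block) to 4.53 (plate and experiment as block). Without 1 experiment the log2 fold change of Ifi27l2a over divisions ran from 3.54 to 4.68, and Ifi27l2a was called each time. High against low within Ifi27-positive divisions had 3 calls by DESeq2 and 0 by the others; the interaction had 0 by both fits. The cause of these differences was not tested. Counting 0 reads of Ifi27 as the lower limit gave the same divisions as under 1 CPM. Among named genes, 3083 alternative values kept direction and side of the threshold, 5 were called in an alternative only (Cfp, 2610307P16Rik, Camk4 and Ifi27l2a by DESeq2, Ifi27l2a over divisions), and the others changed sign without being called. Of Ifi27 the depth limits what an absent read shows in a single cell.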
